A study of Oryza sativa with 18 samples.

Results

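Cytokinin oxidases were followed in roots of rice seedlings after a soak in the synthetic auxin 2,4-D. The members were chosen by identifier as the 9 loci OsCKX1 (LOC_Os01g09260), OsCKX2 (LOC_Os01g10110), OsCKX3 (LOC_Os10g34230), OsCKX4 (LOC_Os01g71310), OsCKX5 (LOC_Os01g56810), OsCKX8 (LOC_Os04g44230), OsCKX9 (LOC_Os05g31040), OsCKX10 (LOC_Os06g37500) and OsCKX11 (LOC_Os08g35860). They are 9 of 56508 loci in the count table, and 8 of them were among the 23289 loci abundant enough to be tested. Only OsCKX10 was left out, because it reached the minimum of 1 CPM (counts scaled to a common library size) in 1 library.

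All plants were Oryza sativa cv. Nipponbare, grown to 7 days on low-nitrogen medium before the treatment. The seedlings stood for 1 h in a 50 µM solution of 2,4-D or in a mock solution without it, and messenger RNA of their roots was sequenced 1, 7 and 14 days later (dpt, days post-treatment). There were 3 biological replicates in each of 6 groups, 18 libraries in all. At 7 and 14 dpt the 2,4-D libraries were made from roots that carried nodule-like structures (NLS), so that at these times treatment and choice of NLS-bearing roots cannot be told apart.

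Cytokinins are adenine-derived hormones that promote cell division in shoots and in nodule primordia and restrain root growth and lateral root initiation. Cytokinin oxidases, also called cytokinin dehydrogenases, cleave the side chain of the free hormone and so inactivate it irreversibly. Their genes form a small family whose members differ in where they are expressed, and several are themselves induced by cytokinin. Auxin and cytokinin often act in opposite directions in roots, and auxin changes both the synthesis and the breakdown of cytokinin.

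Library totals lay between 9416952 and 18057748 counts, and levels are given below as CPM scaled by TMM factors. Replicates of a group correlated at 0.905 to 0.981 over all tested loci. At 7 dpt the 2,4-D replicate 3 was the closest to mock roots, correlating at 0.865 to 0.904 with the mock libraries against 0.825 to 0.883 for the other 2,4-D replicates. The auxin-responsive GH3 locus LOC_Os05g42150 lay at 75.3 to 225 CPM in the 9 2,4-D libraries and at 2.14 to 5.37 CPM in the 9 mock libraries. Of the root markers, the silicon transporter genes Lsi1 and Lsi2 and the cortex gene RCc3 together summed to 401 to 1186 CPM in 2,4-D roots and 2615 to 3250 CPM in mock roots at 7 dpt. At 1 dpt they summed to 1717 to 2760 CPM in 2,4-D roots and 3316 to 5096 CPM in mock roots, with none called. At 14 dpt they summed to 564 to 1458 CPM in 2,4-D roots and 2031 to 4216 CPM in mock roots. RCc3 was called lower at 7 and 14 dpt and Lsi1 at 7 dpt. Of 3 leaf markers the small Rubisco subunit gene RBCS was at 0 in every library, and no leaf marker was called at any time. The leaf list summed to 4.16 to 21.9 CPM in 2,4-D roots and 17.7 to 33.1 CPM in mock roots at 1 dpt. At 7 dpt it summed to 4.44 to 140 CPM in 2,4-D roots and 3.22 to 222 CPM in mock roots, with the highest sum in replicate 3 of both groups. At 14 dpt it summed to 4.86 to 11.8 CPM in 2,4-D roots and 75.2 to 88.6 CPM in mock roots. In bulk roots, fewer cells of a type and less RNA per cell cannot be told apart. The part of the root and leaf markers in the results below was not tested.

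A locus was called when the quasi-likelihood test of edgeR gave a Benjamini-Hochberg adjusted p under 0.05 over all tested loci and the log2 fold change was at least 1 in size. At each time 1 of the 8 tested members passed, and it was another member each time. OsCKX4 was higher in 2,4-D roots at 1 dpt, OsCKX3 was lower at 7 dpt, and OsCKX2 was higher at 14 dpt. Of all loci 11.3% were called at 1 dpt, 14.3% at 7 dpt and 14.1% at 14 dpt, so that 1 of 8 was close to the share called in general. The median log2 fold change of the 8 members was -0.31 at 1 dpt, -0.19 at 7 dpt and -0.34 at 14 dpt, beside -0.01, 0.03 and 0.00 over all loci.

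**Figure D1:**
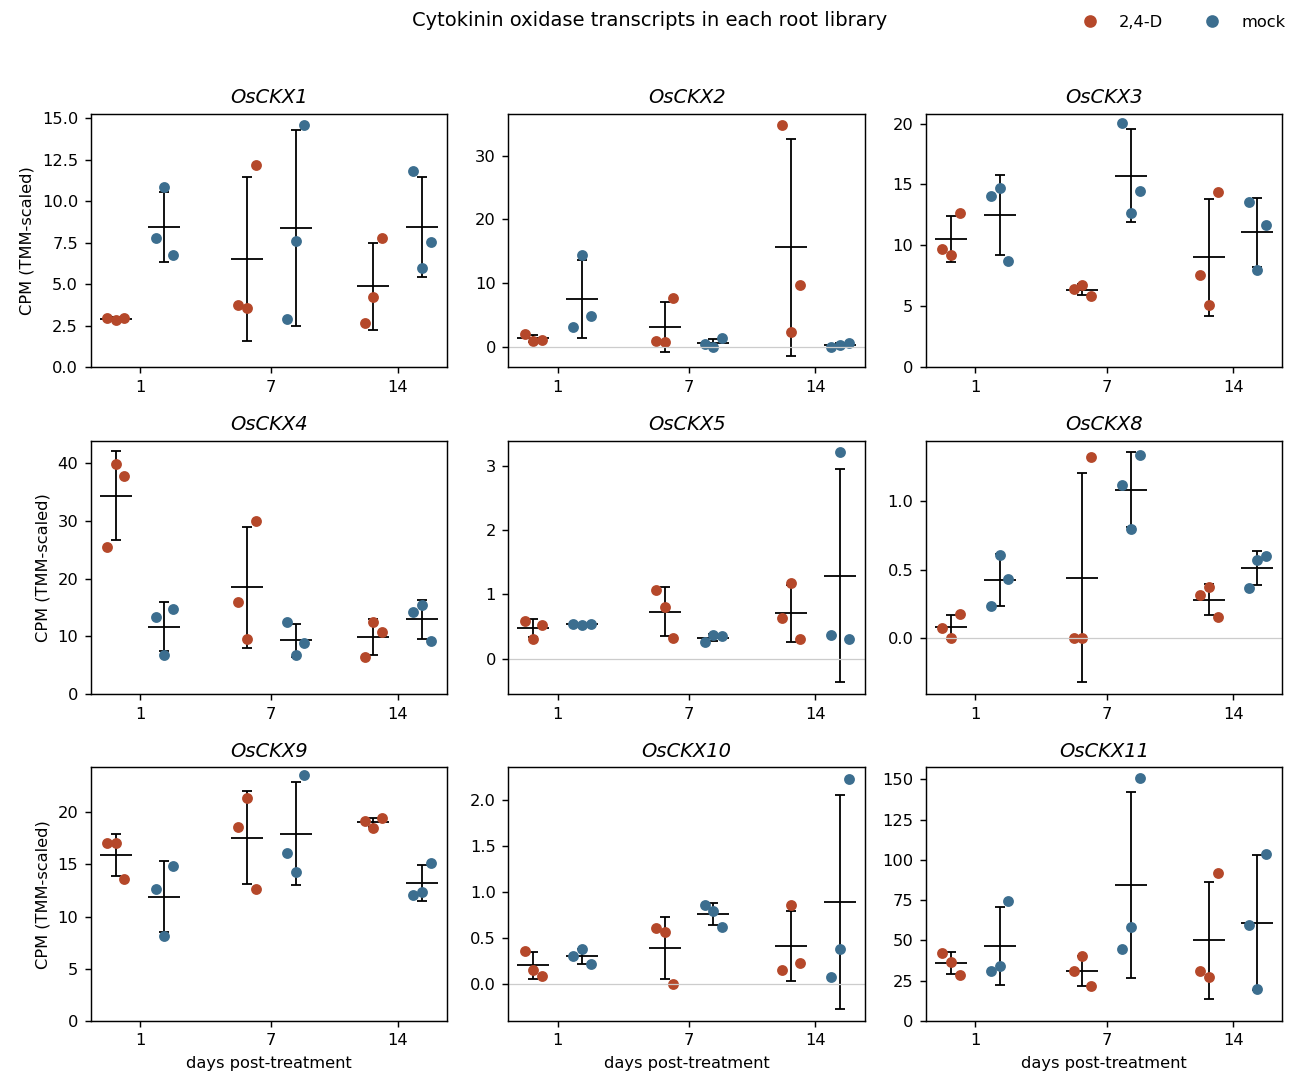
Level of each of the 9 loci in CPM (y axis, linear, with its own scale in each panel) at 1, 7 and 14 dpt. Points are single libraries with the 2,4-D libraries left of the mock libraries of the same time, and bars give the mean and SD of 3 libraries. OsCKX4 at 1 dpt, OsCKX3 at 7 dpt and OsCKX2 at 14 dpt are the called differences, while OsCKX5, OsCKX8 and OsCKX10 stay at or under 3.21 CPM in every library.

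OsCKX4 has been tied in rice to the formation of crown roots, and its transcripts were the only ones of the family called higher 1 day after the soak. They reached 25.5, 39.8 and 37.8 CPM in the 2,4-D replicates at 1 dpt, against 13.4, 6.81 and 14.8 CPM in the mock replicates. The lowest 2,4-D library stood well above the highest mock library. The means were 34.3 ± 7.75 CPM in 2,4-D roots and 11.7 ± 4.25 CPM in mock roots (SD, n = 3 each). This gave a log2 fold change of 1.56 (SE 0.42, 95% interval 0.66 to 2.46), with an edgeR adjusted p = 0.0246. The call was lost when any of 4 single libraries was left out: 2,4-D replicate 2 (edgeR adjusted p = 0.0899), 2,4-D replicate 3 (0.056), mock replicate 1 (0.0613) or mock replicate 2 (0.119). Over all 18 libraries left out in turn the log2 fold change stayed between 1.30 and 1.77.

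At the later times OsCKX4 was not called. Its levels at 7 dpt were 15.9, 9.60 and 30.0 CPM in 2,4-D roots, against 12.4, 6.78 and 8.82 CPM in mock roots. The groups overlapped, since 2,4-D replicate 2 lay under mock replicate 1, and the log2 fold change was 0.99 (SE 0.42, edgeR adjusted p = 0.113). Without 2,4-D replicate 3 the log2 fold change was 0.44. By 14 dpt there were 6.34, 12.5 and 10.7 CPM in 2,4-D roots, against 14.2, 15.4 and 9.14 CPM in mock roots. These values were mixed between the groups, and the log2 fold change was -0.38 (SE 0.41, edgeR adjusted p = 0.555). The 2,4-D means thus stood in the order 1, 7 and 14 dpt from high to low, at 34.3, 18.5 and 9.86 CPM, with overlapping libraries at 1 and 7 dpt and at 7 and 14 dpt. In mock roots the means were 11.7 ± 4.25, 9.33 ± 2.85 and 12.9 ± 3.31 CPM at 1, 7 and 14 dpt (SD, n = 3 each), and the libraries of these times overlapped. By the run assignment given below for OsCKX2, run and time cannot be told apart between 1 dpt and the later times. The 2,4-D effect at 14 dpt minus that at 1 dpt was -1.95 on the log2 scale (SE 0.59) and missed the threshold (edgeR adjusted p = 0.102).

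OsCKX3 was the member called at 7 dpt, when NLS were present. It had 6.43, 6.77 and 5.85 CPM in 2,4-D roots, against 20.0, 12.7 and 14.4 CPM in mock roots. The 3 NLS-bearing libraries were nearly equal, and all lay under the lowest mock library. The means were 6.35 ± 0.468 CPM in 2,4-D roots and 15.7 ± 3.82 CPM in mock roots (SD, n = 3 each). OsCKX3 thus fell by 1.31 on the log2 scale (SE 0.34, 95% interval -2.04 to -0.57), with an edgeR adjusted p = 0.0175. Leaving out 2,4-D replicate 1 (edgeR adjusted p = 0.0525), 2,4-D replicate 2 (0.0509) or mock replicate 1 (0.0736) ended the call, with log2 fold changes between -1.46 and -1.09 over all libraries left out in turn. The summed root markers were lower in 2,4-D roots in the same libraries, by the values given above.

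OsCKX3 was not called at the other times. At 1 dpt it had 9.68, 9.17 and 12.6 CPM in 2,4-D roots, against 14.1, 14.7 and 8.68 CPM in mock roots. The groups overlapped and the log2 fold change was -0.25 (SE 0.34, edgeR adjusted p = 0.674). Its 14 dpt levels were 7.59, 5.07 and 14.4 CPM in 2,4-D roots, against 13.6, 7.99 and 11.7 CPM in mock roots. Replicate 3 of the 2,4-D roots was the highest of these 6 libraries, and the log2 fold change was -0.30 (SE 0.34, edgeR adjusted p = 0.579). The difference between the effects at 7 and 1 dpt was -1.05 (SE 0.48, edgeR adjusted p = 0.413; 0.0773% of all loci called in this contrast), so that a change of the effect with time was not shown.

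OsCKX2, known in rice as Gn1a for its role in grain number, spanned 0 to 34.8 CPM over the 18 libraries. At 14 dpt it had 34.8, 2.296 and 9.70 CPM in 2,4-D roots, from 444, 43 and 126 counts. The mock roots of that time had 0, 0.252 and 0.601 CPM, from 0, 4 and 10 counts. The 0 in mock replicate 1 allows up to 0.22 CPM, taken as 3 counts in that library. Every 2,4-D library lay above every mock library, although the 2,4-D libraries themselves were far apart. The means were 15.6 ± 17.0 CPM in 2,4-D roots and 0.284 ± 0.302 CPM in mock roots (SD, n = 3 each). The fitted log2 fold change was 5.68 (SE 1.41, 95% interval 2.66 to 8.69), with an edgeR adjusted p = 0.0124. Without 2,4-D replicate 1 it was 4.30 and the call was lost (edgeR adjusted p = 0.0568). It was also lost with limma-voom (adjusted p = 0.0662) and in an edgeR fit of the 6 libraries of 14 dpt alone (adjusted p = 0.0534). The summed root and leaf markers were also lower in the 2,4-D libraries of 14 dpt, by the values given above.

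Earlier, OsCKX2 was not called. It stood at 1 dpt at 1.89, 0.862 and 1.04 CPM in 2,4-D roots, against 3.08, 14.5 and 4.77 CPM in mock roots. Here the 2,4-D libraries were all under the mock libraries, with a log2 fold change of -2.54 (SE 1.20, edgeR adjusted p = 0.18) that was -1.60 without mock replicate 2. The 7 dpt levels were 0.919, 0.645 and 7.61 CPM in 2,4-D roots, against 0.328, 0 and 1.34 CPM in mock roots, where the 0 allows up to 0.183 CPM. The 2,4-D replicate 3, the one closest to mock roots over all loci, held most of this signal, and the groups overlapped. Over all replicates the log2 fold change was 2.57 (SE 1.29, edgeR adjusted p = 0.183), which was 0.57 without that one and 4.20 without mock replicate 3.

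The fitted 2,4-D effect on OsCKX2 was thus negative at 1 dpt and positive at 14 dpt. The effect at 14 dpt minus that at 1 dpt was 8.22 on the log2 scale (SE 1.85, 95% interval 4.27 to 12.2; edgeR adjusted p = 0.0454). OsCKX2 was the only one of the 8 members called in this contrast, in which 1.15% of all loci were called. The call was lost on leaving out any of 13 of the 18 libraries. Over all 18 libraries left out in turn the edgeR adjusted p lay between 0.0223 and 0.135 and the difference between 6.85 and 9.26. The call was also lost with limma-voom (adjusted p = 0.115) and, in edgeR, with the 10 CPM filter (0.0502) or no filter (0.102). The mock roots at 1 dpt had a mean of 7.44 ± 6.14 CPM, above the later mock means of 0.555 ± 0.697 CPM at 7 dpt and 0.284 ± 0.302 CPM at 14 dpt (SD, n = 3 each). In the run assignment used here, which neither the sample titles nor the paper give, the 1 dpt libraries belong to another run than those of 7 and 14 dpt. Run and time then cannot be told apart in these levels. By that assignment each comparison of 2,4-D with mock roots lies within 1 run.

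**Figure D2:**
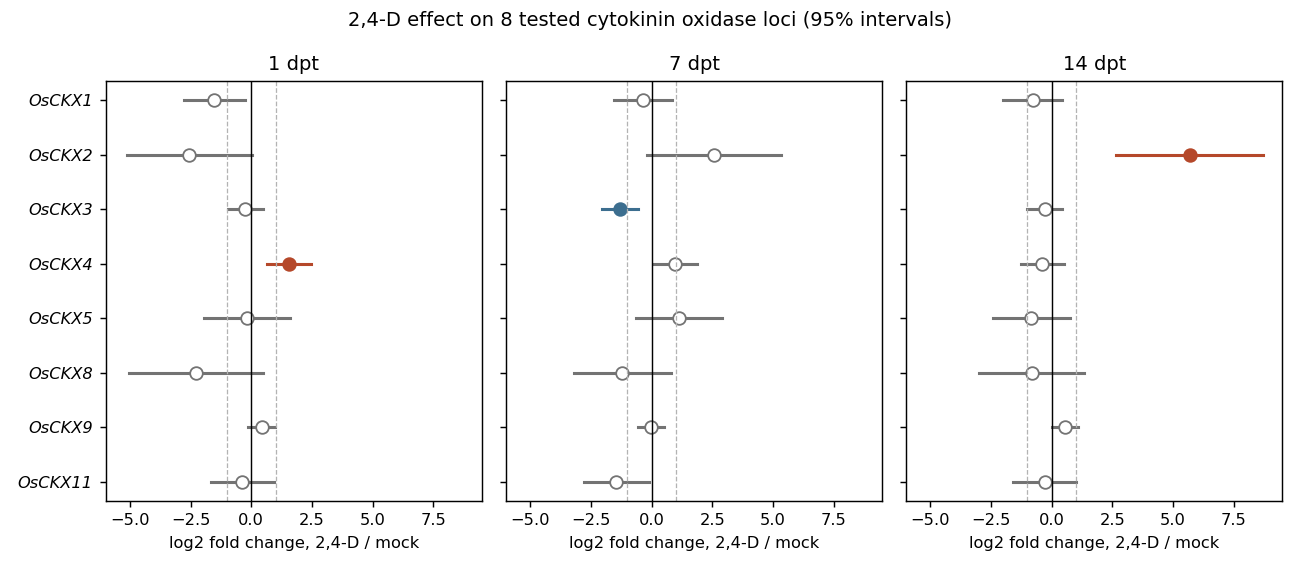
Log2 fold change of 2,4-D over mock roots (x axis) with its 95% interval for the 8 tested members at 1, 7 and 14 dpt. Filled points are the called members, open points the others, and dashed lines mark a log2 fold change of 1 in either direction. The called values are 1.56 for OsCKX4, -1.31 for OsCKX3 and 5.68 for OsCKX2.

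OsCKX1 had separate groups at 1 dpt without being called. It stood at 2.98, 2.82 and 2.94 CPM in 2,4-D roots, against 7.77, 10.8 and 6.73 CPM in mock roots. The 2,4-D libraries were nearly identical and all lay under the mock libraries. Their log2 fold change of -1.53 (SE 0.59, 95% interval -2.79 to -0.28) missed the threshold (edgeR adjusted p = 0.0995). In an edgeR fit of the 6 libraries of 1 dpt alone it passed (adjusted p = 0.00979), and so did OsCKX2 (adjusted p = 0.0451), both lower in 2,4-D roots. At 7 dpt OsCKX1 had 3.75, 3.55 and 12.2 CPM in 2,4-D roots, against 2.89, 7.57 and 14.6 CPM in mock roots. Replicate 3 was the highest library of both groups, and the log2 fold change of -0.35 (SE 0.56, edgeR adjusted p = 0.708) turned to 0.32 without mock replicate 3. The levels at 14 dpt were 2.66, 4.22 and 7.78 CPM in 2,4-D roots, against 11.8, 5.98 and 7.52 CPM in mock roots, with overlapping groups and a log2 fold change of -0.79 (SE 0.57, edgeR adjusted p = 0.36).

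OsCKX9, which in rice is induced by strigolactone and bears on tillering, lay between 8.17 and 23.5 CPM in all 18 libraries. At 1 dpt it had 17.0, 17.1 and 13.6 CPM in 2,4-D roots, against 12.6, 8.17 and 14.9 CPM in mock roots. Its 7 dpt levels were 18.6, 21.4 and 12.6 CPM in 2,4-D roots, against 16.1, 14.2 and 23.5 CPM in mock roots. The groups overlapped at both times, with log2 fold changes of 0.42 (SE 0.25, edgeR adjusted p = 0.297) at 1 dpt and -0.03 (SE 0.25, edgeR adjusted p = 0.944) at 7 dpt. By 14 dpt it stood at 19.2, 18.5 and 19.4 CPM in 2,4-D roots, against 12.1, 12.4 and 15.2 CPM in mock roots. There the groups were apart and the 2,4-D libraries close together, but the log2 fold change of 0.53 (SE 0.25, 95% interval -0.01 to 1.06) was not called (edgeR adjusted p = 0.157).

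OsCKX11, linked in rice to leaf senescence and grain number, held a large share of the family's counts. At 7 dpt it had 31.0, 40.2 and 21.7 CPM in 2,4-D roots, against 44.4, 58.1 and 150 CPM in mock roots. All 2,4-D libraries were under the mock libraries, and mock replicate 3 stood far above the rest. That library also had the highest leaf marker sum of 7 dpt, at 222 CPM, and the part of this in its OsCKX11 level was not tested. The fitted log2 fold change was -1.45 (SE 0.62, 95% interval -2.77 to -0.12; edgeR adjusted p = 0.121), and -0.73 without mock replicate 3. Its 1 dpt levels were 42.2, 36.7 and 28.5 CPM in 2,4-D roots, against 30.7, 34.1 and 74.1 CPM in mock roots. Its 14 dpt levels were 31.2, 26.9 and 91.8 CPM in 2,4-D roots, against 59.5, 19.6 and 104 CPM in mock roots. Replicate 3 was the highest of the mock libraries at each time and of the 2,4-D libraries at 14 dpt. The log2 fold changes were -0.37 (SE 0.61, edgeR adjusted p = 0.741) at 1 dpt and -0.29 (SE 0.61, edgeR adjusted p = 0.781) at 14 dpt. Without mock replicate 3 of the time they turned to 0.14 at 1 dpt and 0.32 at 14 dpt.

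OsCKX5, OsCKX8 and OsCKX10 were close to the detection limit. OsCKX5 and OsCKX8 each passed the filter through 3 libraries only. At 7 dpt OsCKX8 had no count in 2,4-D replicates 1 and 2 and 1.32 CPM in replicate 3, against 1.12, 0.794 and 1.34 CPM in mock roots. Each of these 0 counts allows up to 0.23 or 0.24 CPM, under the lowest mock library. With replicate 3 the log2 fold change was -1.20 (SE 0.94, edgeR adjusted p = 0.407), while limma-voom called OsCKX8 lower over the same libraries (log2 fold change -2.92, adjusted p = 0.0377).

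At 1 dpt OsCKX8 had 0.073, 0 and 0.173 CPM in 2,4-D roots, against 0.231, 0.606 and 0.434 CPM in mock roots. The groups were apart by these values, but the 0 allows up to 0.235 CPM, above the lowest mock library. These are 0 to 2 counts in 2,4-D libraries, and the difference was not called (edgeR adjusted p = 0.266, log2 fold change -2.29, SE 1.29). At 14 dpt it had 0.313, 0.374 and 0.154 CPM in 2,4-D roots, against 0.367, 0.566 and 0.601 CPM in mock roots, which overlapped (log2 fold change -0.83, SE 1.02, edgeR adjusted p = 0.609). OsCKX5 lay at 0.308 to 1.18 CPM in the 2,4-D libraries and at 0.263 to 3.21 CPM in the mock libraries, with the highest value in mock replicate 2 of 14 dpt. Its log2 fold changes of -0.18, 1.12 and -0.85 at 1, 7 and 14 dpt were not called (edgeR adjusted p = 0.914, 0.374 and 0.459), and that at 14 dpt turned to 1.09 without this mock replicate. OsCKX10 lay between 0 and 0.854 CPM in 2,4-D roots and between 0.073 and 2.23 CPM in mock roots. At 7 dpt its 2,4-D libraries, at 0.613, 0.565 and 0 CPM, lay under the mock libraries, at 0.853, 0.794 and 0.624 CPM. In a fit with no filter its log2 fold changes were -0.50, -1.01 and -1.06 at 1, 7 and 14 dpt (edgeR adjusted p = 0.988, 0.61 and 0.608), and a difference was not detectable at this depth.

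At 1 dpt the 2,4-D and mock libraries did not overlap for 4 of 8 members, OsCKX4 above and OsCKX1, OsCKX2 and OsCKX8 below the mock libraries, where 36.9% of all loci did not overlap and 19.8% lay below. For OsCKX8 the separation is uncertain, since its 0 count allows a level above the lowest mock library. At 7 dpt this held for OsCKX3 and OsCKX11, both below, against 36.7% of all loci, with 16.7% below. At 14 dpt it held for OsCKX2 and OsCKX9, both above, against 34.9% of all loci, with 16.8% above. No member kept its groups apart in the same direction at more than 1 time. The share of all loci that did so was not computed, so this is a description only.

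Summed over the 9 loci, the means of 2,4-D and mock roots lay within their spread at 1 and 14 dpt. The sum was 101 ± 4.93 CPM in 2,4-D roots and 99.4 ± 22.5 CPM in mock roots at 1 dpt (SD, n = 3 each). At 7 dpt it was 84.5 ± 6.74 CPM in 2,4-D roots and 138 ± 66.8 CPM in mock roots, and all 2,4-D libraries, at 78.3 to 91.6 CPM, lay under the mock libraries, at 98.3 to 216 CPM. At 14 dpt it was 110 ± 41.7 CPM in 2,4-D roots and 110 ± 42.7 CPM in mock roots. OsCKX11 made up 23.7% to 69.8% of the sum, with a median of 40.9%. Without it, the sums at 7 dpt were 53.5 ± 14.4 CPM in 2,4-D roots and 54.1 ± 10.9 CPM in mock roots. These sums follow reads and not molecules, since longer transcripts give more reads.

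**Figure D3:**
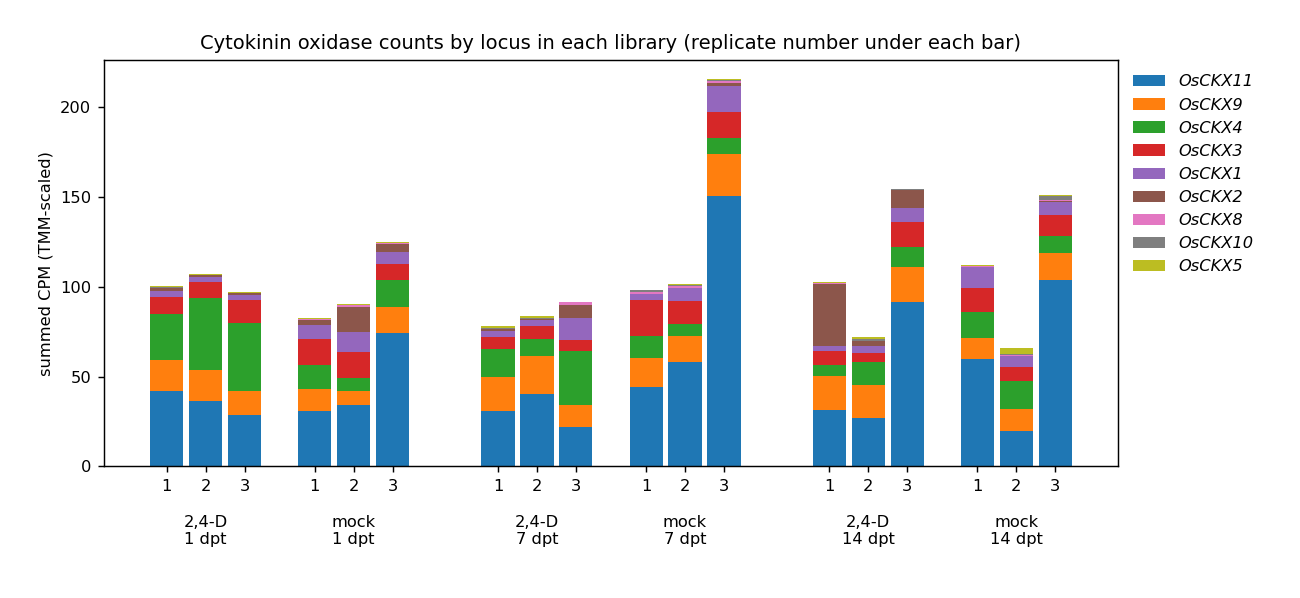
Counts of the 9 loci stacked by locus, in CPM (y axis, from 0), for each of the 18 libraries (x axis, by treatment, time and replicate). OsCKX11 is the largest segment of the tallest bar, with 150 CPM in mock replicate 3 at 7 dpt, and OsCKX2 reaches its highest level, 34.8 CPM, in 2,4-D replicate 1 at 14 dpt.

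From 7 to 14 dpt no member was called within either treatment. In 2,4-D roots the largest differences at 14 dpt against 7 dpt were 2.32 for OsCKX2 (SE 1.14, edgeR adjusted p = 0.925) and -0.90 for OsCKX4 (SE 0.41, edgeR adjusted p = 0.925). In mock roots OsCKX5 had the largest, at 1.96 (SE 0.80, edgeR adjusted p = 0.836), where mock replicate 2 of 14 dpt held the highest level. Of all loci edgeR called 0 (0%) in either course, with 1210 loci at an unadjusted p under 0.05 in 2,4-D roots and 1340 in mock roots. DESeq2 called 4 loci in 2,4-D roots and 30 in mock roots.

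Over the 18 libraries the members did not move as 1 group. Among the 28 pairs of tested members, Pearson correlations of log2 CPM ran from -0.55 between OsCKX5 and OsCKX11 to 0.59 between OsCKX1 and OsCKX8, and 8 were positive. The loci most like OsCKX4 were LOC_Os01g39990 (0.919), LOC_Os04g01470 (0.892) and LOC_Os05g46790 (0.876). Those most like OsCKX3 were LOC_Os06g51410 (0.871), LOC_Os01g73230 (0.866) and LOC_Os09g27960 (0.862). Those most like OsCKX2 were LOC_Os01g26080 (0.858), LOC_Os06g08340 (0.827) and LOC_Os01g12870 (0.811). The libraries share treatments, times and, by the run assignment used here, runs. These correlations across 18 libraries are descriptions of likeness only.

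Other genes of cytokinin synthesis and signalling were taken from 7 lists of 46 loci, of which 34 were tested. At 1 dpt 6 were called, all lower in 2,4-D roots. This count was 2 without 2,4-D replicate 1 or 2 of that time, 3 without mock replicate 1 or 2, and 10 without mock replicate 3, of which 2 were higher. DESeq2 called 13 at 1 dpt, 2 higher and 11 lower. At 7 dpt 2 were called higher and 13 lower, and at 14 dpt 1 was called higher and 5 lower, with 3 called in all without 2,4-D replicate 1 of 14 dpt. LOC_Os01g49390, called higher at both of these times, passed the filter through 2,4-D libraries only. Over all loci the shares called were 4.07% higher and 7.21% lower at 1 dpt, 6.27% and 8.07% at 7 dpt, and 5.55% and 8.54% at 14 dpt. The median log2 fold change of the 34 loci was -0.52, -0.54 and -0.20 at 1, 7 and 14 dpt.

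Type-A response regulators are rapid targets of cytokinin signalling and dampen it. Of 6 tested loci, 4 fell at 1 dpt, 5 fell at 7 dpt and 0 were called at 14 dpt. LOC_Os02g35180 averaged 23.8 ± 1.84 CPM in 2,4-D roots and 95.3 ± 32.1 CPM in mock roots at 1 dpt (SD, n = 3 each; edgeR adjusted p = 0.00486). At 7 dpt it averaged 13.6 ± 1.54 CPM in 2,4-D roots and 94.7 ± 44.0 CPM in mock roots, with a log2 fold change of -2.80 (SE 0.39, edgeR adjusted p = 0.000507). LOC_Os01g72330 fell by 2.02 and LOC_Os12g04500 by 1.89 on the log2 scale at 7 dpt. At 1 dpt LOC_Os02g58350 fell by 1.68 and LOC_Os04g57720 by 1.63.

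Among the receptors, histidine kinases that bind cytokinin through their CHASE domain, 1 of 3 tested loci was called at each time. LOC_Os03g50860 averaged 43.3, 40.7 and 44.1 CPM in 2,4-D roots at 1, 7 and 14 dpt, against 114, 111 and 95.1 CPM in mock roots. The log2 fold changes were -1.40, -1.45 and -1.11, and the groups did not overlap at any time. Type-B response regulators carry the signal to the target genes, and 1 of 5 tested loci was called, LOC_Os06g08440 at 7 dpt (35.1 CPM in 2,4-D roots, 72.8 CPM in mock roots, log2 fold change -1.05).

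Synthesis genes moved in both directions. Isopentenyltransferases make the first committed step, and of 7 tested loci LOC_Os03g59570 fell at all 3 times. It averaged 2.46 CPM in 2,4-D roots and 6.94 CPM in mock roots at 1 dpt, and fell by 1.85 at 7 dpt and 2.15 at 14 dpt on the log2 scale. LOC_Os01g49390 of the same list rose at 7 dpt (log2 fold change 1.43) and 14 dpt (1.72), but its means were only 0.888 CPM in 2,4-D roots and 0.319 CPM in mock roots at 7 dpt. Its highest mock level was 0.722 CPM, at 14 dpt. The locus thus passed the filter through 2,4-D libraries only, and its rise is no evidence. Both loci of the CYP735A list, hydroxylases that make trans-zeatin forms, fell at 7 dpt, LOC_Os09g23820 by 3.41 and LOC_Os08g33300 by 2.50. LOC_Os09g23820 fell by 1.75 at 14 dpt as well. The LOG-type phosphoribohydrolases release the active base, and 3 of 9 tested loci were called at 7 dpt. LOC_Os09g37540 averaged 45.9 ± 14.2 CPM in 2,4-D roots and 7.88 ± 3.84 CPM in mock roots (SD, n = 3 each; log2 fold change 2.54, SE 0.62, edgeR adjusted p = 0.0117). LOC_Os04g43840 fell by 1.73 and LOC_Os02g41770 by 1.52 at 7 dpt, and LOC_Os04g43840 by 1.35 at 14 dpt. Glucosylation is the other route that removes active hormone, and of 2 tested zeatin glucosyltransferase loci LOC_Os04g46990 fell by 3.57 at 7 dpt and by 3.02 at 14 dpt.

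**Figure D4:**
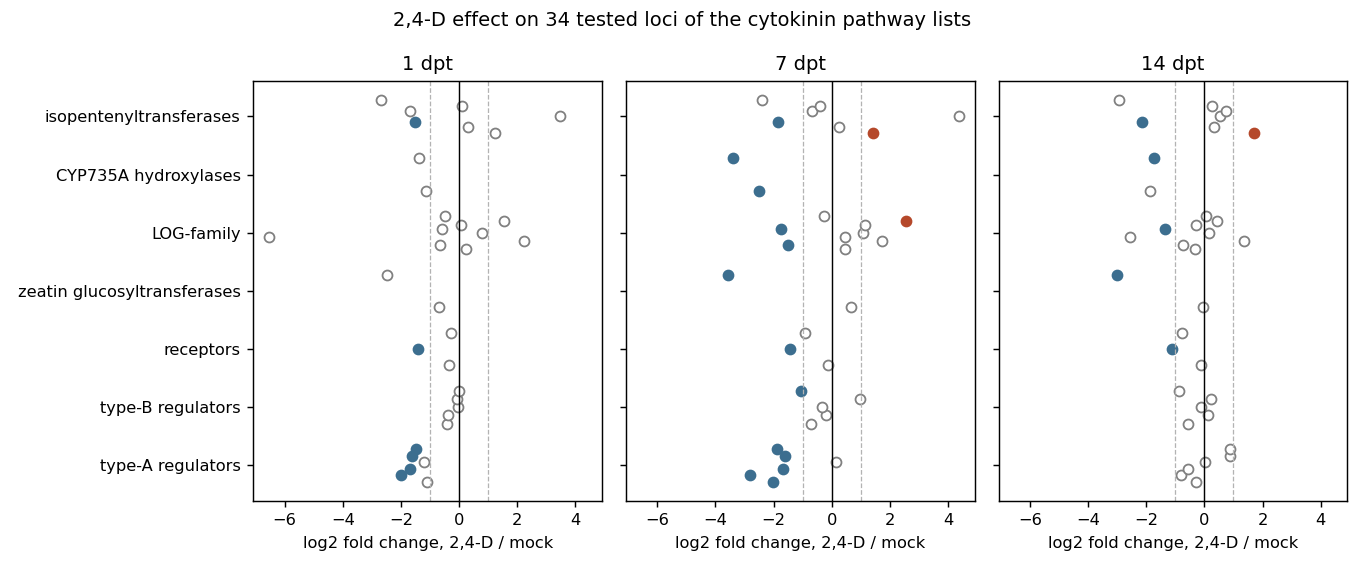
Log2 fold change of 2,4-D over mock roots (x axis) for 34 tested loci in 7 lists of cytokinin synthesis, conjugation and signalling genes (y axis) at 1, 7 and 14 dpt. Filled points are called loci and open points the others, with dashed lines at a log2 fold change of 1 in either direction. Of the type-A regulators 4 loci are called lower at 1 dpt, 5 at 7 dpt and 0 at 14 dpt.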

How the data were processed

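Groups of the 18 samples were taken from the labels. The authors mapped stranded paired-end libraries to the rice MSU genome with Rsubread, and the deposited values are raw featureCounts counts per transcript, not normalized. How strand and multiply mapped reads were counted is not given in the sources used here. Counts of near-identical or overlapping loci are uncertain. Of the table's columns 0 remained unassigned.

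Isoform rows were summed per locus. Loci with at least 1 CPM in 2 or more libraries (23289) were fitted over all 18 libraries with edgeR 4.0.16 (robust glmQLFit, glmQLFTest, TMM factors; R 4.3.3), with Benjamini-Hochberg adjustment over these loci. Correlations used log2 CPM with a prior count of 2. The fit was tested on simulated data. Alternatives were limma-voom (limma 3.58.1), DESeq2 1.42.0, other factors and filters, the first isoform alone, no fold threshold, a replicate block, the libraries of 1 time alone and each library left out in turn.

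The members and lists were chosen with earlier results of these data known. Named are all 9 members, up to 3 called loci of each pathway list per time, and the 3 loci most correlated with each called member. The reference table holds 7 of the 9 OsCKX names but does not pair them with these identifiers. List membership comes from general knowledge of rice gene families, and no sequence or length for the build of the counts was at hand.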

Additional observations from a re-analysis of the deposited data

Results flagged for a closer look

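The 2,4-D effect on OsCKX2 differed between 14 and 1 dpt by 8.22 on the log2 scale (SE 1.85) in the interaction contrast of edgeR (adjusted p = 0.0454). All 3 2,4-D libraries lay above the mock libraries at 14 dpt and all 3 below them at 1 dpt. The 2 times belong to different runs in the run assignment used here, which neither the sample titles nor the paper give. The call was lost on leaving out any of 13 of the 18 libraries, with limma-voom (adjusted p = 0.115), with the 10 CPM filter (0.0502) and with no filter (0.102).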

How the results depend on the processing

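The 3 called members kept their direction under every alternative run, and OsCKX3 at 7 dpt kept its call under each of them except single libraries left out. Among the members 0 were called at 1 dpt with a replicate block (OsCKX4, edgeR adjusted p = 0.0608) and 3 in the fit of the 6 libraries of that time. At 7 dpt 2 were called with limma-voom. At 14 dpt 0 were called with limma-voom and with the 6 libraries of that time. For the effect at 14 minus 1 dpt, 0 were called with limma-voom, the 10 CPM filter (edgeR adjusted p = 0.0502), no filter (0.102) or the replicate block (0.141), and 2 with DESeq2. OsCKX9 at 7 dpt turned to 0.0337 with library totals alone.

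The replicate block reduced the loci called to 1250 of 2627 at 1 dpt, 2224 of 3339 at 7 dpt, 1954 of 3281 at 14 dpt, 0 of 18 for the effect at 7 minus 1 dpt and 1 of 268 for 14 minus 1 dpt, and pathway loci at 1 dpt to 2 of 6. Same-numbered replicates correlated at -0.48 to 0.32 over 9 pairs in their deviations from the group means, with 2 pairs over 0.1, so the numbers were not taken as pairing the samples. With the 10 CPM filter 2184 loci were called at 7 dpt, 2185 at 14 dpt and 9 for 7 minus 1 dpt. With the 6 libraries of 14 dpt alone 1756 loci and 2 pathway loci were called. For 7 minus 1 dpt limma-voom called 10, DESeq2 472 and no filter 42. For 14 minus 7 dpt DESeq2 called 7 where edgeR called 0 (1435 at an unadjusted p under 0.05). For 14 minus 1 dpt limma-voom called 139 and DESeq2 1271. DESeq2 called 4 loci in 2,4-D roots and 30 in mock roots at 14 against 7 dpt, and 13 pathway loci at 1 dpt. The causes were not tested.

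With single libraries left out, members called ranged from 0 to 1 at 1 dpt, 0 to 2 at 7 dpt (OsCKX8 without 2,4-D replicate 3, when it passed the filter through mock roots only and is no evidence), 0 to 1 at 14 dpt and 0 to 1 for 14 minus 1 dpt. Loci called ranged from 1156 to 3243, 2091 to 3692 and 2058 to 3534 at 1, 7 and 14 dpt, 0 to 106 for 7 minus 1, 0 to 3 for 14 minus 7, 29 to 840 for 14 minus 1 dpt and 0 to 8 in the mock course. Pathway loci ranged from 2 to 10, 11 to 17 and 3 to 7. Members that were not called turned direction in some of these fits, with log2 fold changes from -0.32 to 0.0719 for OsCKX5 and -0.59 to 0.14 for OsCKX11 at 1 dpt, from -1.22 to 0.32 for OsCKX1 and -0.21 to 0.21 for OsCKX9 at 7 dpt, and from -1.47 to 1.09 for OsCKX5 and -1.07 to 0.32 for OsCKX11 at 14 dpt. Members under about 1 CPM rest on few counts, so that only large differences could be detected. The paper calls the replicates biological without saying how plants were pooled.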
